A study of Mus musculus with 8 samples.

Results

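The transcription factors described here are Pparg, Ppara, Ppard, Rxra, Meox2 and Tcf15, 6 of the 30406 genes counted in both runs of a mouse single-cell RNA sequencing study of endothelial cells. They were chosen by symbol, for their known part in endothelial fatty acid handling, and not by a measured value, but with earlier results of these data known. PPARγ, PPARα and PPARδ, the products of Pparg, Ppara and Ppard, are nuclear receptors that bind fatty acids and their derivatives, pair with the retinoid X receptor α encoded by Rxra, and switch on genes of fatty acid uptake, storage and oxidation. The homeobox protein MEOX2 and the basic helix-loop-helix protein TCF15 form a pair that is known to drive fatty acid uptake genes in the capillary endothelium of heart and muscle. Through such genes (the scavenger receptor Cd36, the carriers Fabp4 and Fabp5, lipoprotein lipase Lpl and its anchor Gpihbp1), endothelial cells pass fatty acids from blood to fat and muscle.

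All mice were male and carried ROSA26-eYFP+/+ with Cdh5-CreERT2+, a tamoxifen-activated Cre driven by the endothelial Cdh5 promoter that turns on a yellow fluorescent reporter in endothelial cells. They ate tamoxifen food from 6 weeks of age for 2 weeks, and from 8 weeks were kept for 12 to 13 weeks on normal chow with 5.8% fat or on a high fat diet with 60% fat. The 4 groups are mesentery and epididymal adipose tissue on each diet, each with 2 libraries, 1 in run A and 1 in run B of the experiment, and each library pools the tissue of 6 mice after a flow sort, the gate of which was not examined. No group was without tamoxifen or without the Cre, so both are shared by chow and high fat diet.

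The run A libraries held 1352 to 2780 barcodes and 3461360 to 6714473 unique molecular identifiers (UMIs, 1 per captured RNA molecule), and the run B libraries held 3189 to 6218 barcodes and 18829960 to 36779289 UMIs. Median UMIs per barcode were 1161 to 2677 in run A and 3185 to 4340 in run B, so the values of run A are the less precise. After filters and removal of called doublets 22981 cells remained, of which 18115 lay in 16 clusters with endothelial markers, among them 5595 capillary-like, 3329 arterial-like, 2655 venous-like and 2346 lymphatic-like cells. The summed level of the 10 endothelial markers was 7967 to 10180 CPM (counts scaled to a common library total) in the endothelial cells of the 8 libraries and 74 to 356 CPM in T-cell-like cells. The members and the listed lipid genes were left out of the genes used for clustering. Any 2 libraries shared 0 to 10 barcodes.

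All 6 genes lie on the forward strand of the mouse genome (mm10, GENCODE M21 annotation): Pparg at chr6:115360951-115490399, Ppara at chr15:85734983-85802819, Ppard at chr17:28232700-28301474, Rxra at chr2:27676440-27762957, Meox2 at chr12:37108540-37179534 and Tcf15 at chr2:152143561-152149097. The 250 bases before a start are shown for Pparg (start 3 of 3 listed), for Meox2 and for the uptake gene Cd36, because both factors and this gene were called together in arterial-like cells, and none of these windows overlaps an annotated exon. Sequences are from RefSeq (GRCm38.p6). Capitals mark AGGTCA or its complement TGACCT, the half-site bound by PPAR and RXR, and CANNTG, the E-box bound by basic helix-loop-helix factors such as TCF15, searched on both strands.
Pparg, chr6:115421816-115422065, forward strand: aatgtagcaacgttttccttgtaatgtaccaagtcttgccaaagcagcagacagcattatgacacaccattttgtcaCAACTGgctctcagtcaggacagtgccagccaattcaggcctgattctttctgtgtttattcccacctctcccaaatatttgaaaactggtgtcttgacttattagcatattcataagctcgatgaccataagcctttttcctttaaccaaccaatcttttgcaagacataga
Meox2, chr12:37108290-37108539, forward strand: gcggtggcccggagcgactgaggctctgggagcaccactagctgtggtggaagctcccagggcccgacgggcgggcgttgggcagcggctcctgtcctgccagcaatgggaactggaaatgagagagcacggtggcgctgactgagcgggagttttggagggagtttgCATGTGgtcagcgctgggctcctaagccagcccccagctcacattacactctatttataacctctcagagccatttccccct
Cd36, chr5:17835897-17836146, reverse strand: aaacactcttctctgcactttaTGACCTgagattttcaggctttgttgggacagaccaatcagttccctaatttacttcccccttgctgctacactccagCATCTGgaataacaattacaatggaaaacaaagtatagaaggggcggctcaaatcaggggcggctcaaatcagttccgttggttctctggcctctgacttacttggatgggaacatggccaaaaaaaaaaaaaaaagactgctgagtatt
The Cd36 window held 1 half-site and 1 E-box, and the Pparg and Meox2 windows held 1 E-box each and no half-site. Of all 32851 RefSeq windows of this length, 14.0% held AGGTCA and 66.2% held CANNTG, so a match with either is common. The direct repeat of AGGTCA with 1 base between its copies, the full element of a PPAR and RXR pair, stood in 0.0335% of the windows and in none of those 3. Among the members with a RefSeq window, 2 of 5 genes held an AGGTCA half-site: Pparg at starts 1 and 2 of its 3, not at the one printed, and Rxra at start 2 of 2.

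Of the 6 factors, Tcf15, Pparg and Meox2 were readily measured. Tcf15 and Pparg were highest in capillary-like cells, intermediate in arterial-like cells and lower in venous-like cells, whereas Meox2 did not differ by the test between venous-like and capillary-like cells. Tcf15 and Meox2 were low in lymphatic-like cells, and Pparg was lower there than in capillary-like and arterial-like cells by the test over both runs. Rxra and Ppard were low in every class, and Ppara was almost not detected. The comparison of classes used counts summed per library and class, with the library as a block, and edgeR's quasi-likelihood test over 8878 genes. Of 30 member differences (5 tested members over 6 pairs of classes), 17 passed an adjusted p of 0.05. Many genes differ between endothelial classes, so these counts stand against a high background: 23.1% of all tested genes passed between capillary-like and arterial-like cells, 27.3% between capillary-like and venous-like, 43.4% between capillary-like and lymphatic-like, 27.4% between arterial-like and venous-like, 44% between arterial-like and lymphatic-like, and 39.3% between venous-like and lymphatic-like cells.

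Tcf15 level in capillary-like cells of run A was 338 CPM in mesentery on chow, 252 in mesentery on high fat diet, 78.3 in adipose on chow and 312 in adipose on high fat diet. In run B the same groups had 892, 850.0, 704 and 694 CPM. In arterial-like cells Tcf15 was 57.6, 181, 247 and 133 CPM in run A and 253, 400.0, 396 and 411 CPM in run B, in the same order of groups. The order capillary-like, arterial-like, venous-like, lymphatic-like held in 7 of 8 libraries, the exception being adipose on chow in run A, where arterial-like exceeded capillary-like cells. Venous-like cells had 25.2 to 89.4 CPM of Tcf15 in run A and 124 to 320.2 CPM in run B, and lymphatic-like cells 1.28 to 12.5 and 5.54 to 24.3 CPM. The fitted log2 difference in Tcf15 was 0.95 (SE 0.28, edgeR adjusted p = 0.0131) between capillary-like and arterial-like cells and 1.81 (SE 0.29, edgeR adjusted p = 1.2e-05) between capillary-like and venous-like cells. Between arterial-like and venous-like cells it was 0.87 (SE 0.28, edgeR adjusted p = 0.0222). The call between capillary-like and arterial-like cells did not hold with DESeq2 (log2 difference 0.83, adjusted p = 0.0597), nor with edgeR without mesentery on chow of run B (0.78, adjusted p = 0.0703) or mesentery on high fat diet of run B (0.90, adjusted p = 0.0515), and that between arterial-like and venous-like cells did not hold without mesentery on high fat diet of run A (0.78, adjusted p = 0.0681). Against lymphatic-like cells the log2 difference in Tcf15 was 5.46 for capillary-like, 4.51 for arterial-like and 3.64 for venous-like cells, the widest gap of any tested member.

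Pparg level in capillary-like cells was 6.91 CPM in mesentery on chow, 36.1 in mesentery on high fat diet, 36.1 in adipose on chow and 84.3 in adipose on high fat diet in run A, and 138, 153, 223 and 203 CPM in run B. Its level in venous-like cells was 0, 5.72, 18.9 and 10.5 CPM in run A and 11.4, 33.7, 77.8 and 62.7 CPM in run B. Capillary-like cells exceeded arterial-like cells, and these exceeded venous-like cells, in 8 of 8 libraries. The log2 difference in Pparg between capillary-like and venous-like cells was 2.23 (SE 0.31, edgeR adjusted p = 1.9e-06), and between arterial-like and venous-like cells 1.40 (SE 0.31, edgeR adjusted p = 7.7e-04). Between capillary-like and arterial-like cells it was 0.83 (SE 0.28, edgeR adjusted p = 0.0316), a call that did not hold with DESeq2 (adjusted p = 0.149), nor without mesentery on chow of run B (log2 difference 0.57, edgeR adjusted p = 0.237), mesentery on high fat diet of run B (0.89, adjusted p = 0.0657) or adipose on high fat diet of run A (0.81, adjusted p = 0.0621). Venous-like and lymphatic-like cells had overlapping Pparg levels, with a log2 difference of -0.04 (SE 0.36, edgeR adjusted p = 0.956) whose direction changed with the libraries used: venous-like exceeded lymphatic-like cells in 0 of 4 libraries of run A and in 3 of 4 of run B. Capillary-like cells exceeded lymphatic-like cells in Pparg in 3 of 4 libraries of run A and arterial-like cells in 2 of 4, and both did in 4 of 4 of run B. The log2 difference in Pparg against lymphatic-like cells was 2.18 (SE 0.33, edgeR adjusted p = 2.7e-06) for capillary-like and 1.36 (SE 0.33, adjusted p = 0.0012) for arterial-like cells, and DESeq2 did not call the latter (0.90, adjusted p = 0.0525). The lymphatic level of Pparg was 16.1 to 23.0 CPM in run A and 20.3 to 35.9 CPM in run B.

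The level of Meox2 in venous-like cells of run A was 112 CPM in mesentery on chow, 97.2 in mesentery on high fat diet, 31.6 in adipose on chow and 110.4 in adipose on high fat diet, against 20.7, 18.03, 36.1 and 73.3 CPM in capillary-like cells. In run B the venous-like cells had 159, 294, 309.8 and 297 CPM and the capillary-like cells 252, 334, 364 and 315 CPM, so capillary-like cells were the higher in all 4 libraries of run B and in 1 of 4 of run A. The log2 difference in Meox2 between these classes was -0.04 (SE 0.29, edgeR adjusted p = 0.953). Venous-like exceeded arterial-like cells in 8 of 8 libraries, with a log2 difference, arterial-like minus venous-like, of -0.74 (SE 0.29) that missed the threshold (edgeR adjusted p = 0.0553), as did capillary-like minus arterial-like cells at 0.69 (SE 0.29, adjusted p = 0.0855). Among the 13 alternative settings the former was called in 4 (-0.89 to -0.72) and the latter in 1 (0.68). Against lymphatic-like cells, where Meox2 was 9.85 to 28.1 CPM, the log2 difference was 3.08 for capillary-like, 2.39 for arterial-like and 3.12 for venous-like cells, and all 3 were called.

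The receptors' shared partner Rxra was even across the blood endothelial classes, at 12.6 to 54.1 CPM. It was lower in lymphatic-like cells, at 13.2 to 26.8 CPM, and the log2 difference was 0.73 (SE 0.17, edgeR adjusted p = 8.7e-04) for capillary-like, 0.62 (SE 0.17, adjusted p = 0.0035) for arterial-like and 0.55 (SE 0.17, adjusted p = 0.0125) for venous-like cells. Ppard, which encodes the most widely expressed of the 3 PPARs, had 0 to 31.4 CPM over classes and libraries and differed between no pair of classes in the comparison above, with its lowest adjusted p at 0.166 for arterial-like against lymphatic-like cells (log2 difference 0.41, SE 0.23, edgeR). At clustering resolution 2 the Ppard difference was larger and was called for arterial-like (0.76) and for capillary-like (0.62) minus venous-like cells. Ppara, best known as a driver of fatty acid oxidation in liver, had 0 to 13 counts per library among all endothelial cells. Its 2 libraries with 13 counts were the chow libraries of run B, and there were 1, 1 and 0 counts in the others. In those 2 libraries the summed level of 8 adipocyte markers in the endothelial cells was 2968 and 5703 CPM, against 169 and 67.0 CPM in the high fat diet libraries of run B and 4.37 to 25.9 CPM in run A, and its part in the Ppara counts was not tested. It did not pass the filter on low counts and was not tested in any comparison. In the 4 libraries with a count of 0, Ppara was not detectable at this depth; a limit of 3 counts allows up to 0.216 CPM in adipose on high fat diet of run B and up to 1.46 CPM in the same group of run A.

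Shares of cells gave the same picture for Tcf15 once each cell was thinned to 1000 UMIs. In run B a Tcf15 UMI was found in 47.0 to 56.9% of capillary-like, 19.5 to 32.1% of arterial-like, 10.2 to 23.9% of venous-like and 0.556 to 1.79% of lymphatic-like cells. In T-cell-like cells, which should lack Tcf15, the share was 1.35% of 74 cells and 0 of 48 cells in the 2 run B libraries with enough of them. So few cells cannot show whether the lymphatic share of Tcf15 is above background. Median UMIs per cell before thinning were 3292.5 to 5147 in the capillary-like and 4325 to 5245.5 in the T-cell-like cells, and the unthinned Tcf15 share of capillary-like cells was 84.98 to 89.98%. In run A the thinned Tcf15 share of capillary-like cells was 5.08 to 29.3%. Pparg had a UMI in 13.4 to 19.5% of thinned capillary-like cells in run B (34.9 to 62.8% unthinned) and Meox2 in 20.5 to 29.5% (48.1 to 75.5% unthinned), and neither was found in the thinned T-cell-like cells, which allows a share of up to 4.86% of the 74 and 7.40% of the 48 (upper 95% exact binomial limits, counting error only).

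Outside the endothelium, counts of the factors were found in several cell types. Adipocyte-like cells, in which Pparg is the master regulator of fat cell identity, had 243 and 271 CPM of Pparg in the 2 libraries of run B that held enough of them, but they also had 446 and 517 CPM of Tcf15, a level near that of arterial-like cells. In run A the 2 adipose libraries (32 cells on chow, 44 on high fat diet) had 0 and 23.8 CPM of Pparg and 0 of Tcf15. Those run A cells had 655 and 33.4 CPM of the summed adipocyte markers and 7050 and 4736 CPM of the endothelial markers, so their name is weak. Mural-like cells in run B had 140 to 153 CPM of Pparg, 146 to 208 of Meox2 and 223 to 365 of Tcf15, and in run A 0 to 3.01, 9.03 to 34.5 and 9.03 to 25.8 CPM. The summed endothelial markers in the same mural-like cells were 3990 to 5091 CPM in run B and 448 to 1476 in run A, and in the adipocyte-like cells of run B 2478 and 2820 CPM, and their part in these levels was not tested. Macrophage-like cells had 24.3 to 75.9 CPM of Pparg in run B, B-cell-like cells 0 in the 4 libraries with at least 20 of them, and fibroblast-like cells 0 to 17.03 CPM. A fibroblast-like cluster of mesentery, cluster 23, led by Sfrp5 and Igfbp6, had 285, 349 and 421 CPM of Meox2 in its 3 libraries with 0, 0 and 1.37 CPM of Tcf15, so Meox2 was found there with almost no Tcf15.

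Within the endothelial classes the factors differed by cluster. Cluster 17, arterial-like cells led by Klk10, Adh7, Pi16 and Mgp (genes described in large arteries), had Pparg at 0 to 5.04 CPM, Meox2 at 0 to 30.2 and Tcf15 at 0 to 10.1 in its 5 libraries with at least 20 cells. In the other arterial-like clusters, 4 and 9, Pparg was 29.3 to 199 and 5.42 to 81.8 CPM. Cluster 8, mesenteric venous-like cells led by Plac8 and Adgrg6, had Pparg at 0 to 1.89 CPM while Meox2 was 129 to 236 and Tcf15 50.0 to 115 CPM. Venous-like cluster 6 had Pparg at 0 to 81.7 CPM and Tcf15 at 25.8 to 351. Cluster 22, a capillary-like cluster led by Col13a1 and Esm1, had 544 CPM of Tcf15 in mesentery on chow and 18.7 in adipose on chow, both in run B.

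Ppard was highest in a cluster outside the 4 classes. Cluster 15, endothelial cells of mesentery led by the scavenger receptors Marco and Msr1 with C3 and Bmp2, and named after no class, had 87.1 and 96.9 CPM of Ppard on chow (runs A and B) and 112 on high fat diet (run A). These cells had 179 to 263 CPM of Meox2 and 0 to 6.17 of Tcf15. At a finer clustering (resolution 2), the genes that lead cluster 15 led 2 mesenteric clusters. The one led by Marco, Msr1 and C3 (288 cells) passed the limit for endothelial markers. The one led by Coch and Bmp2 (281 cells) did not, at a mean marker level of 0.673 against a limit of 0.85. The endothelial name of cluster 15 thus depends on the clustering. Cluster 24, a part of the venous-like class led by Glycam1 and Madcam1, addressins of high endothelial venules, followed with 55.2 and 40.9 CPM of Ppard and none of Pparg. It was 6.9 and 7.4% of the venous-like cells in mesentery on chow (runs A and B). At resolution 2 a cluster led by the same genes was named after no class, and there Ppard was called lower in venous-like than in arterial-like and capillary-like cells. Other cells also changed class at that resolution, and the part of cluster 24 alone was not tested. All other sums of a cluster and a library, 81 of them, had 0 to 35.1 CPM of Ppard with a median of 11.6. These clusters were singled out after the values had been seen, and no test was made of them.

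**Figure D1:**
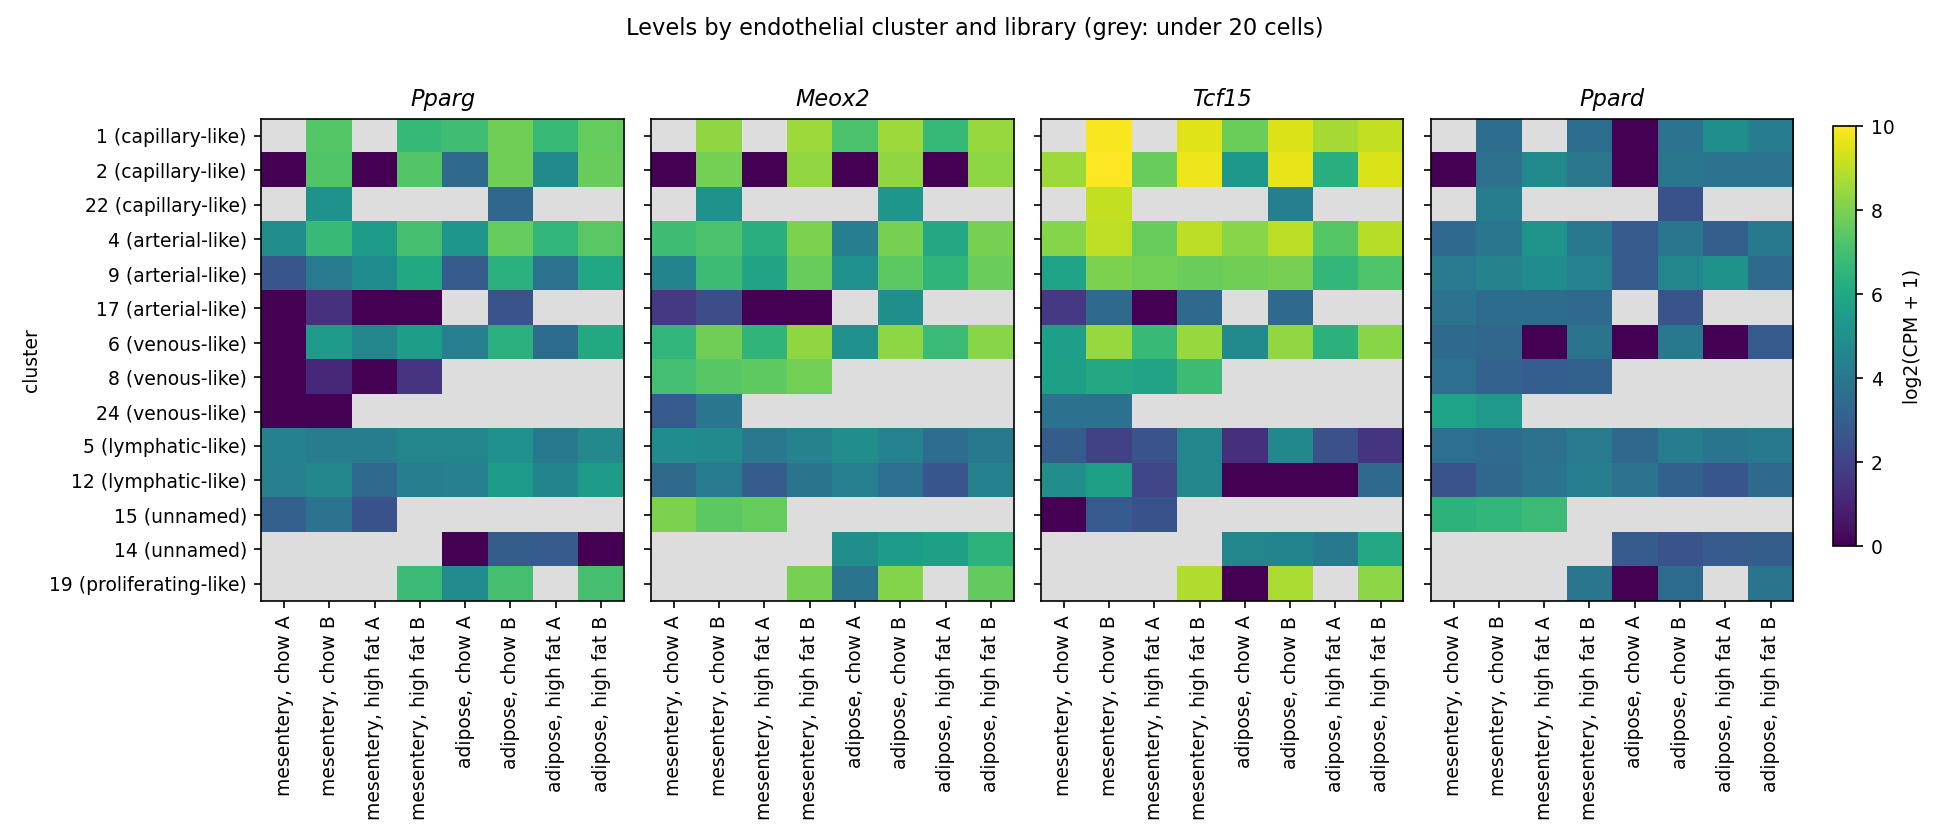
Level of Pparg, Meox2, Tcf15 and Ppard, log2(CPM + 1), by endothelial cluster (rows) and library (columns); grey marks fewer than 20 cells. Cluster 17 is dark for Pparg and Tcf15, and for Meox2 outside adipose on chow, clusters 8 and 24 are dark for Pparg, and cluster 15 is the brightest row for Ppard.

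The level of Pparg, Meox2 and Tcf15 differed between the runs. In a fit with the run as a block, run B exceeded run A in Pparg by 2.01 (SE 0.29) on the log2 scale in capillary-like, 2.06 (SE 0.25) in arterial-like and 3.00 (SE 0.49) in venous-like cells, all called by edgeR. Meox2 was higher in run B by 2.89 (SE 0.28), 1.98 (SE 0.22) and 1.29 (SE 0.27), and Tcf15 by 1.69 (SE 0.23), 1.27 (SE 0.20) and 1.90 (SE 0.25). In lymphatic-like cells Tcf15 alone was called, at 1.66 (SE 0.42), with Pparg at 0.48 (SE 0.24, edgeR adjusted p = 0.147) and Meox2 at 0.03 (SE 0.28, adjusted p = 0.946). Over all endothelial cells as 1 class, Pparg was 2.99 (SE 0.21) higher in run B, Meox2 2.26 (SE 0.41) and Tcf15 3.11 (SE 0.16). Rxra and Ppard were not called in any class. Of all genes, 38.4% differed between the runs in all endothelial cells, 16.4% in capillary-like, 27.1% in arterial-like, 19.7% in venous-like and 30.5% in lymphatic-like cells. The runs also differ in depth, in mice and in the software version of the count files, and these cannot be told apart. The share of barcodes over the mitochondrial limit was 22.8 to 30.8% in run A and 5.36 to 8.85% in run B. The summed adipocyte markers in capillary-like cells were 0 to 208 CPM in run A and 83.4 to 3987 CPM in run B. The gap also differed between capillary-like clusters, in counts scaled by their total alone. Cluster 1 (154 cells in run A) had 115 CPM of Pparg in run A and 215 in run B, and 115 and 371 of Meox2. Cluster 2 (184 cells in run A) had 9.84 and 180 CPM of Pparg, and 0 and 309 of Meox2. The part of the mitochondrial share, the adipocyte RNA or the clusters in the run difference was not tested.

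**Figure D2:**
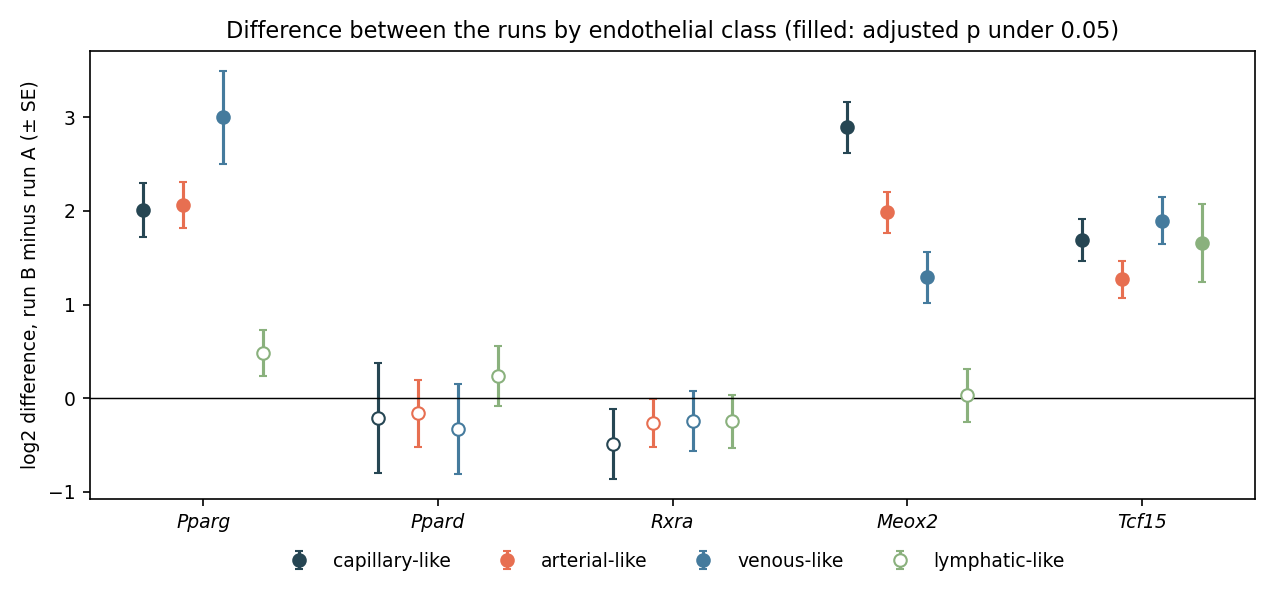
Log2 difference between run B and run A in each factor, with its standard error, in 4 endothelial classes (edgeR fit with the run as a block, filled where the adjusted p is under 0.05). Pparg and Meox2 stand at 1.29 to 3.00 in the blood endothelial classes and at 0.48 and 0.03 in lymphatic-like cells, where Tcf15 alone is filled.

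The run difference in Pparg and Meox2 itself differed by class. Tested as class by run against lymphatic-like cells, it was larger in Pparg by 1.52 (SE 0.43, edgeR adjusted p = 0.0324) in capillary-like, 1.61 (SE 0.41, adjusted p = 0.0147) in arterial-like and 2.52 (SE 0.59, adjusted p = 0.0095) in venous-like cells. In Meox2 it was larger by 2.81 (SE 0.46, edgeR adjusted p = 1.8e-04), 1.97 (SE 0.41, adjusted p = 0.0024) and 1.31 (SE 0.39, adjusted p = 0.0509). For Tcf15 the 3 differences were -0.04, -0.43 and 0.22 (edgeR adjusted p from 0.787 to 0.987). Of all genes, 5.77%, 5.96% and 4.43% passed in these comparisons.

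Diet and tissue were compared within each class with 1 mean per group over the 8 libraries, 2 per group. In this fit, which does not use the run, no member passed in any of 25 fits (5 comparisons in 5 sets of cells: all endothelial, capillary-like, arterial-like, venous-like and lymphatic-like). Over the same fits 0% of all genes passed in edgeR. On simulated arterial-like data this fit recovered 0% of log2 changes of 1 and of 2. Its lack of calls therefore cannot show that the members did not change. Of the 125 member tests, 2 had an unadjusted p under 0.05 in edgeR, and DESeq2 and limma-voom called 0 as well, with 2 at an unadjusted p under 0.05 each. With the run as a block, which pairs the libraries of 1 run, edgeR called 6 member tests, DESeq2 4 and limma-voom 1. All 6 calls of edgeR were in arterial-like and venous-like cells.

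In arterial-like cells of the mesentery, Pparg was 5.62 CPM on chow and 27.9 on high fat diet in run A, and 40.1 and 106 CPM in run B. Meox2 was 23.9 and 53.0 CPM in run A and 82.1 and 229.7 in run B. The high fat diet library was the higher in both runs for each, while the groups overlapped over the runs. With the run as a block the log2 change in Pparg was 1.51 (SE 0.30, edgeR adjusted p = 0.0075) and in Meox2 1.39 (SE 0.28, adjusted p = 0.01), so 2 of 5 tested members rose, beside 2.64% of all 10461 genes called in either direction. Tcf15 changed by 0.99 (SE 0.27) and missed the threshold (edgeR adjusted p = 0.058). The log2 changes without the block were 1.503 (SE 1.03) for Pparg, 1.40 (SE 1.02) for Meox2 and 0.90 (SE 0.74) for Tcf15, with edgeR adjusted p of 1 for each. These calls rest on the test and on single libraries: with the block, DESeq2 gave an adjusted p just above 0.05 for Pparg and 0.0532 for Meox2, neither called, limma-voom gave 0.123 and 0.0546, and edgeR without mesentery on high fat diet of run B 0.61 and 0.64 (log2 changes 1.78 and 1.36), where the lone library left is taken to vary as the other groups do.

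Compared across tissues on chow, the arterial-like cells of mesentery had less of the same 3 factors than those of adipose. Adipose on chow had 20.6 and 149 CPM of Pparg in runs A and B, against 5.62 and 40.1 in mesentery. With the run as a block the log2 difference, mesentery minus adipose, was -1.86 (SE 0.29, edgeR adjusted p = 7.8e-04) in Pparg, -1.12 (SE 0.28, adjusted p = 0.0326) in Meox2 and -1.20 (SE 0.27, adjusted p = 0.0168) in Tcf15, so 3 of 5 tested members were lower, beside 2.88% of all genes called. The values without the block were -1.85, -1.17 and -1.05, with edgeR adjusted p of 1. The Pparg call held with DESeq2 (adjusted p = 0.0098) and limma-voom (adjusted p = 0.0305) with the block, Tcf15 held with DESeq2 alone (adjusted p = 0.0248 and 0.0882), and Meox2 with neither (adjusted p = 0.427 and 0.111). Without adipose on chow of run B no member was called: Pparg was -1.08 (edgeR adjusted p = 0.819), Meox2 -0.0044 (adjusted p = 1) and Tcf15 -1.76 (adjusted p = 0.0915).

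The make-up of the arterial-like class moved with both comparisons. Cluster 17, in which Pparg, Meox2 and Tcf15 had the levels given above, made up 55.0 and 31.3% of the arterial-like cells in mesentery on chow (runs A and B), 18.5 and 3.7% on high fat diet, 9.5 and 3.8% in adipose on chow and 2.3 and 0.7% in adipose on high fat diet. Without cluster 17 and with the block, the change on high fat diet in mesentery was 0.87 (edgeR adjusted p = 0.29) in Pparg, 0.74 (adjusted p = 0.5) in Meox2 and 0.27 (adjusted p = 1) in Tcf15, and no member was called beside 0.881% of genes. In the tissue comparison without cluster 17, Pparg remained called at -1.18 (edgeR adjusted p = 0.029), beside 0.989% of genes, whereas Meox2 was -0.41 (adjusted p = 1) and Tcf15 -0.35 (adjusted p = 1). This alternative was chosen after the data were seen.

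RNA of fat cells moved with these comparisons too, and adipocytes express Pparg. The summed level of 8 adipocyte markers in arterial-like cells of run B was 533 CPM in mesentery on chow, 122 on high fat diet, 1985 in adipose on chow and 47.4 in adipose on high fat diet, while in run A it was 5.48 to 34.2 CPM. Scaled by the ratio of Pparg to these markers in adipocyte-like cells, this RNA would correspond to 5.02% of the Pparg counts of arterial-like cells in mesentery on chow and 6.75% in adipose on chow of run B, and for 9.26 to 14.5% in capillary-like and venous-like cells, where the adipocyte-like cells used for the ratio carried the endothelial markers given above. With the block and only arterial-like cells without an adipocyte marker UMI, the change on high fat diet in mesentery was 2.16 (SE 0.30, edgeR adjusted p = 0.0012) in Pparg and 1.62 (SE 0.29, adjusted p = 0.0066) in Meox2, beside 2.58% of genes. The tissue difference in Pparg was -1.63 (SE 0.32, edgeR adjusted p = 0.022), beside 1.03% of genes, while Meox2 (-1.08, adjusted p = 0.138) and Tcf15 (-0.93, adjusted p = 0.388) were no longer called. In these cells Pparg was also called in adipose, at 1.24 on high fat diet (edgeR adjusted p = 0.047), beside 0.76% of genes. Pparg was likewise higher on high fat diet in mesentery among all endothelial cells without such a UMI (2.07, edgeR adjusted p = 0.046, beside 0.288%) and among venous-like cells without one (3.41, adjusted p = 0.048, beside 0.42%). The cells left out were unequal shares of the groups. In run B such a UMI was found in 81.5% of capillary-like cells of mesentery on chow and 49.8% on high fat diet. In arterial-like cells of adipose it was found in 64.6% on chow and 14.5% on high fat diet. The choice of cells thus also changed the make-up of these sets, and its part in these calls was not tested.

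**Figure D3:**
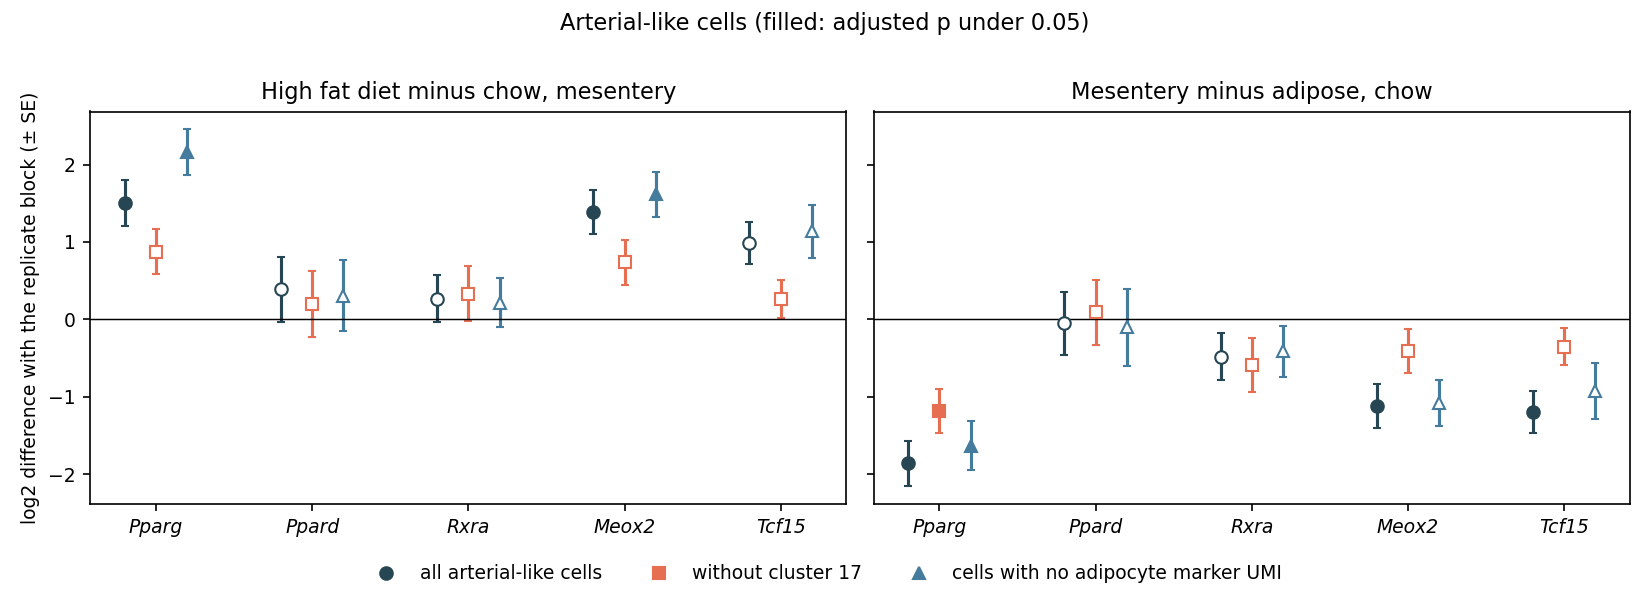
Log2 difference with its standard error in arterial-like cells for each factor (edgeR with the run as a block), for the high fat diet against chow in mesentery and for mesentery against adipose on chow; filled where the adjusted p is under 0.05. Pparg, Meox2 and Tcf15 move toward 0 without cluster 17, where only Pparg in the tissue comparison stays filled, and Rxra and Ppard are unfilled throughout.

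In venous-like cells, too, Pparg was lower in mesentery than in adipose on chow. Mesentery had 0 and 11.4 CPM of Pparg in runs A and B, and adipose 18.9 and 77.8. The log2 difference was -3.07 (SE 0.48, edgeR adjusted p = 0.002) with the run as a block and -3.22 (SE 1.29, adjusted p = 1) without it, and 1 of 5 members was called beside 2.3% of genes. Since 1 library is at 0, the size of this fitted difference depends on the prior count. It was -3.59 (adjusted p = 0.0042) by DESeq2 and -3.24 (adjusted p = 0.0862) by limma-voom with the block. Without adipose on chow of run B it was -4.54 (edgeR adjusted p = 0.379), and without mesentery on chow of run B -7.41 (adjusted p = 4.8e-04). Cluster 8, in which Pparg was at most 1.89 CPM, made up 83.0 and 65.5% of venous-like cells in mesentery on chow, 48.1% and 74 of 370 cells on high fat diet, and 1.1 to 5.3% in adipose. In cluster 6 alone Pparg differed by -1.01 (SE 0.44, edgeR adjusted p = 1), and no member was called beside 0.181% of genes. Among venous-like cells with no adipocyte marker UMI the difference was -3.10 (adjusted p = 0.207), with no member called beside 0.586%.

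The other comparisons gave no member call with the block. The shares of capillary-like clusters 1 and 2 differed by group and by run. In run B cluster 2 was 94.6 and 90.9% on high fat diet, and cluster 1 86.1% in adipose on chow. In run A cluster 1 was 64.9% in adipose on high fat diet, and cluster 2 65.8% in adipose on chow. Cluster 2 had 0 counts of Meox2 and 3 of Pparg in 184 cells of run A, against 3869 and 2261 in 2464 cells of run B. In a fit of cluster 2 alone no member was called in any comparison, with or without the block. Cluster 2 had only 27 cells in mesentery on chow and 26 on high fat diet of run A. The lack of calls therefore cannot show that the members did not change there. In capillary-like cells the change on high fat diet in mesentery was 0.29 (SE 0.34) in Pparg, 0.37 (SE 0.33) in Meox2 and -0.24 (SE 0.31) in Tcf15, and the share of genes called was 0.789%. For diet in adipose, tissue on chow, tissue on high fat diet and their interaction it was 0.956%, 0.696%, 0.0928% and 0.0371%. Arterial-like cells had no member called for diet in adipose (0.315% of genes), tissue on high fat diet (0.115%) or the interaction (0.00956%). Venous-like cells had none for diet in mesentery (0.475%), diet in adipose (0.155%), tissue on high fat diet (0.097%) or the interaction (0.0388%), and Pparg in mesentery changed there by 1.82 (SE 0.48, edgeR adjusted p = 0.168). Lymphatic-like cells had none for diet in mesentery (1.76%), tissue on chow (1.32%), tissue on high fat diet (0.149%), diet in adipose (0%) or the interaction (0%). All endothelial cells together had none for diet in mesentery (0.0449%), diet in adipose (0.00749%), tissue on chow (0.412%), tissue on high fat diet (0%) or the interaction (0%), with Pparg at -1.62 (SE 0.29, edgeR adjusted p = 0.0744) for tissue on chow. Over the 25 fits with the block the lowest adjusted p was 0.255 for Ppard and 0.707 for Rxra.

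Whether diet and tissue acted unequally on the classes was tested in 1 fit over the class sums, in comparisons chosen after the levels were seen. On chow, the tissue difference in Tcf15 was lower in arterial-like than in capillary-like cells by -1.86 (SE 0.43, edgeR adjusted p = 0.0234), beside 1.24% of genes. For Pparg it was lower in venous-like than in capillary-like cells by -2.20 (SE 0.45, adjusted p = 0.0061), beside 1.54% of genes, and for Tcf15 by -1.67 (SE 0.45, adjusted p = 0.0552). For diet in mesentery no member was called: Pparg was higher by 1.22 (SE 0.40, edgeR adjusted p = 0.281) in arterial-like than in capillary-like cells (0.394% of genes called) and by 1.47 (SE 0.47, adjusted p = 0.294) in venous-like than in capillary-like cells (0.27%). A diet change that differs between arterial-like and capillary-like cells was thus not shown for any of these factors.

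The genes that these factors are known to act on were read from 3 lists: 10 genes of fatty acid uptake and carriage, 16 PPAR target genes of fatty acid use, and 21 partners, relatives and coregulators. The lists were chosen with earlier results of these data known, so they are not independent of the data. Their counts are a description. No listed gene was called without the block. With it, the uptake list moved with Pparg and Meox2 in arterial-like cells of the mesentery on high fat diet, where 5 of 9 tested genes rose and 0 fell, beside 2.64% of all genes called in either direction: Cd36 by 1.60, Fabp4 by 1.69, Fabp5 by 2.17, Gpihbp1 by 1.49 and Lpl by 1.499 on the log2 scale. The median over the list was 1.49, against -0.0101 over all genes tested. Fabp4, the fatty acid binding protein of fat and capillaries, was 1167 CPM on chow and 4510 on high fat diet in run A, and 12941 and 36874 in run B. Of the PPAR target list, 3 of 13 rose: Angptl4 by 2.86 (an inhibitor of lipoprotein lipase), the lipid droplet coat gene Plin2 by 1.25 and the glycerol channel gene Aqp7 by 1.58. Of the partners, Nrip1, a corepressor of nuclear receptors, changed by -0.91 and was the only 1 of 18 called. Without cluster 17, where 0.881% of all genes were called, Fabp4 (0.92), Fabp5 (1.45), Angptl4 (2.27) and Plin2 (1.25) remained called, whereas Cd36 was 0.84 (edgeR adjusted p = 0.0583), Gpihbp1 0.79 (adjusted p = 0.219) and Lpl 0.91 (adjusted p = 0.502). In arterial-like cells without an adipocyte marker UMI the same 5 uptake genes and 3 PPAR targets were called, beside 2.58% of genes, for example Cd36 at 1.95 and Fabp4 at 2.05, and Nrip1 was not (-0.82, edgeR adjusted p = 0.0853).

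In the tissue comparison on chow the same 5 uptake genes were lower in arterial-like cells of the mesentery: Cd36 by -1.13, Fabp4 by -1.84, Fabp5 by -1.79, Gpihbp1 by -1.75 and Lpl by -2.34 (median of the 9 tested -1.13, against 0.00284 over all genes, and 2.88% of all genes called). Of the PPAR targets Angptl4 (-2.88) and Aqp7 (-1.24) were lower, and of the partners Tcf4 (-0.85), which encodes an E protein of the kind that pairs with TCF15. Several of these are also genes of fat cells, and the summed adipocyte markers were lower in the same direction in run B (533 CPM in mesentery and 1985 in adipose). In cells without an adipocyte marker UMI, where 1.03% of all genes were called, Fabp4 (-1.66), Gpihbp1 (-1.55), Lpl (-2.001) and Angptl4 (-2.36) remained called, whereas Cd36 (-0.81, edgeR adjusted p = 0.0599), Fabp5 (-1.37, adjusted p = 0.071), Aqp7 (-0.72, adjusted p = 0.489) and Tcf4 (-0.88, adjusted p = 0.057) did not. Without cluster 17, where 0.989% were called, Fabp4, Fabp5, Gpihbp1, Lpl and Angptl4 remained called at -0.95, -0.98, -0.96, -1.69 and -2.22, and Cd36 was -0.29 (edgeR adjusted p = 1). The mesentery on chow libraries are shared by this comparison and the diet comparison, so the 2 are not independent.

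Angptl4 was called in more classes than any factor. With the block and on high fat diet it rose in mesentery by 1.68 in capillary-like, 4.19 in venous-like and 1.96 in lymphatic-like cells, and in adipose by 1.505 in capillary-like cells, where none of the 5 tested factors was called in the same comparison. In adipose capillary-like cells Fabp5 (2.52) and Plin2 (1.51) rose as well. On chow, venous-like cells of mesentery were lower than those of adipose in Gpihbp1 (-3.40), Lpl (-2.03), Angptl4 (-2.95) and Aqp7 (-2.59). There the summed adipocyte markers were 442 CPM in mesentery and 2003 in adipose in run B, and among cells without such a UMI only Gpihbp1 of these 4 remained called (-3.54, edgeR adjusted p = 0.0115; Lpl -1.48, Angptl4 -2.26 and Aqp7 -2.28 were not). Lymphatic-like cells of mesentery were higher in Cd36 (1.62) and Lpl (1.49), and capillary-like cells in Meox1 (1.22), the relative of Meox2.

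Within a class, cells with a UMI of a factor were set against cells without one, after each was thinned to 1000 UMIs, as a description with no test. In arterial-like cells the mean Cd36 UMI number of cells with Tcf15 over that of cells without it was 1.24 to 2.59 (median 1.57, above 1 in 5 of 5 libraries), and the median ratio was 1.54 for Fabp4, 1.66 for Gpihbp1 and 1.68 for Lpl. For example, in mesentery on chow of run B the 131 arterial-like cells with a Tcf15 UMI had a mean of 24.3 Fabp4 UMIs and the 541 without had 10.3. With Pparg the median ratio was 1.34 for Cd36, 1.39 for Fabp4 and 1.49 for Gpihbp1, each above 1 in 4 of 4 libraries, and 1.34 for Lpl, also in 4 of 4. With Meox2 the medians were 1.21, 1.20 and 1.27, above 1 in 4 of 4 libraries, and 1.16 for Lpl, above 1 in 2 of 4 (lowest 0.938). In capillary-like cells the ratios stood near 1: with Pparg the median over genes and libraries was 1.05, with Meox2 1.03 and with Tcf15 1.10. Cells of cluster 17 are among the arterial-like cells without a factor UMI, and their part in the arterial-like ratios was not tested. In venous-like cells the median ratio with Tcf15 was 1.23 for Cd36 and 1.35 for Fabp4, each above 1 in 5 of 5 libraries. It was 2.18 for Gpihbp1, above 1 in 4 of 5, and 1.84 for Lpl, in 4 of 4. With Meox2 the venous-like median over genes and libraries was 1.06, with 11 of 19 ratios above 1. Between the factors, the number of arterial-like cells with both a Meox2 and a Tcf15 UMI was 1.07 to 1.40 times the number that the product of their shares of cells gives, in the 4 libraries of run B, and in capillary-like cells of run B it was 1.01 to 1.06 times that number. In venous-like cells of run B it was 1.10 to 1.33 times that number. With cells thinned to 500 UMIs the venous-like ratio was 0.736 to 1.20, above 1 in 1 of 3 libraries. At that depth the arterial-like ratio was 1.15 to 1.46, above 1 in 3 of 3, and the capillary-like 0.989 to 1.10, in 3 of 4.

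**Figure D4:**
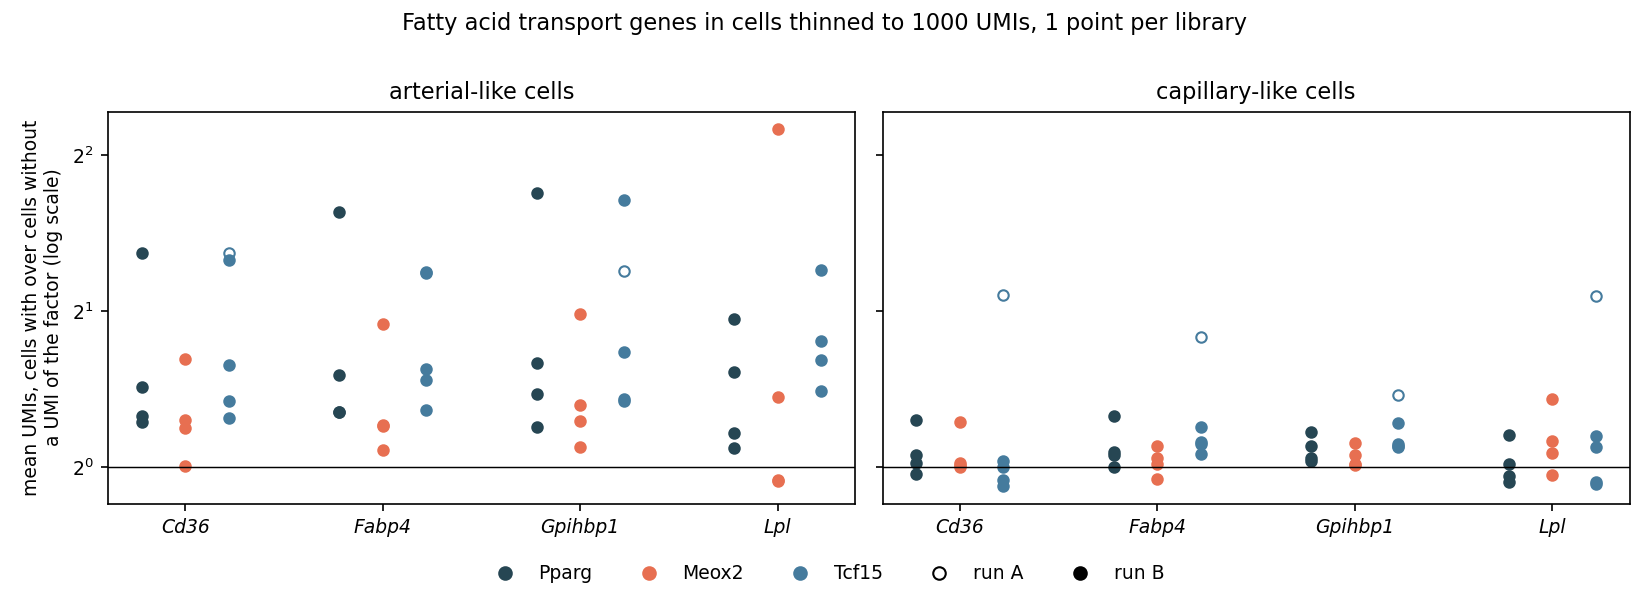
Ratio of the mean UMIs of 4 fatty acid transport genes in cells with a UMI of a factor over cells without (log axis), 1 point per library, in arterial-like and capillary-like cells thinned to 1000 UMIs. Ratios for Pparg and Tcf15 are above 1 in arterial-like cells at every point, while most of those in capillary-like cells lie close to 1.

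The genes most like each factor over the 32 sums of class and library were named by the correlation of log2(CPM + 1) after the mean of each run was subtracted, among 6398 genes, as a description of sums that share libraries. For Tcf15 they were AW112010 (Pearson r = 0.96), the protocadherin gene Pcdh1 (0.96) and Eepd1 (0.95). For Meox2 they were Pkp4 (0.89), the adhesion receptor gene Adgrf5 (0.89) and Dtx3l (0.86). For Pparg the spectrin gene Sptan1 (0.85), Sept4 (0.84) and Prag1 (0.83) came first, for Ppard Synrg, Rabl6 and Tpd52l2 (0.81, 0.81 and 0.80), and for Rxra Atxn1, Ndufa12 and Apol10b (0.73, 0.70 and 0.70). Ppara had a mean of 0.0652 CPM over these sums, so its correlations are not given.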

How the data were processed

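The authors deposited raw UMI counts per gene and barcode for 8 10x Genomics 3' libraries, 4 groups in runs A and B. The file headers name software version 3.0.2 for run A and 5.0.0 for run B, and the submitters' processing notes name mm10 and Seurat 4.3.0. Genes were matched between the runs by identifier (31053 in the run A list, 32285 in that of run B, 30406 in both). Of 27944 barcodes, 23996 had 500 or more UMIs, 300 or more genes and no more than 10% mitochondrial counts; 22.8 to 30.8% of run A barcodes and 5.36 to 8.85% of run B barcodes exceeded that percentage. Scrublet marked 52 cells with its automatic threshold; this was reset after the scores were seen, which removed 1015 cells (4.23%) as doublets.

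Cells were clustered (scanpy 1.11.5, leidenalg 0.10.2; 2000 variable genes without the members and lists, 30 principal components corrected for run, 20 neighbours, resolution 1) into 24 clusters. These were named from fixed markers, with limits on marker number and level set after the clusters were seen, and a difference from the study may come from the rebuilt names. Counts were summed per library and class (20 cells or more) and tested with edgeR 4.0.16 in R 4.3.3 (TMM, filterByExpr, quasi-likelihood test, Benjamini-Hochberg adjustment over all genes tested, call at adjusted p under 0.05), with DESeq2 1.42.0 and limma 3.58.1 as alternatives. Each group has 2 pools of 6 mice. Without a block the p-values measure the spread between the pools of a group. With the run as a block they measure the spread left after the shared run difference is taken out. In comparisons between classes, with the library as a block, they measure how class differences vary between libraries.

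The labels describe the runs as repeats of 1 experiment, which pairs the libraries. The departures of 2 groups from their means correlated within a run by 0.32 to 0.39 (6 pairs of groups) in capillary-like cells, 0.50 to 0.63 in arterial-like, 0.40 to 0.61 in venous-like, 0.63 to 0.69 in lymphatic-like and 0.58 to 0.74 in all endothelial cells. Promoter windows were matched by symbol to RefSeq (GRCm38.p6), for 5 of the 6 members (not Tcf15). Other doublet, mitochondrial, filter and clustering settings, cells without adipocyte marker UMIs, thinning to 500 UMIs and leaving out each library were the alternatives.

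The members are always named, listed genes where called, and for each member the 3 most like genes with a mean of 20 CPM or more. The members and lists were chosen with earlier results of these data known. The tests were tried on simulated arterial-like sums with genes changed in mesentery on high fat diet. The edgeR fit without the block recovered 0% of log2 changes of 1 and of 2. With the block it recovered 29% and 84.8%.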

Additional observations from a re-analysis of the deposited data

Results flagged for a closer look

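In 7 comparisons the effect on a factor differed between endothelial classes by a test of the difference itself (edgeR's quasi-likelihood test, adjusted over all 8878 genes). In 5 of them the effect is the gap between run B and run A, which was larger than in lymphatic-like cells for Pparg by 1.52 in capillary-like, 1.61 in arterial-like and 2.52 in venous-like cells, and for Meox2 by 2.81 in capillary-like and 1.97 in arterial-like cells, all on the log2 scale. In the lymphatic-like cells themselves Pparg was 16.1 to 23.0 CPM in run A and 20.3 to 35.9 CPM in run B.

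The other comparisons are of the tissue difference on chow. For Tcf15, the difference of mesentery minus adipose was lower in arterial-like than in capillary-like cells by -1.86. For Pparg it was lower in venous-like than in capillary-like cells by -2.20. The comparisons between classes were chosen after the levels had been seen. Cluster 17 of the arterial-like and cluster 8 of the venous-like cells, which have little or no Pparg, are most frequent in mesentery on chow, and their part in these differences was not tested.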

How the results depend on the processing

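Without a block no member was called in any of 25 fits, except that keeping all genes with a count called 1 member, Pparg, for tissue on chow in arterial-like and in venous-like cells (1 each). The replicate block raised the count of called members to 2 for diet in mesentery and 3 for tissue on chow in arterial-like cells, and to 1 for tissue on chow in venous-like cells. With the block, the count for arterial-like diet in mesentery was 3 with no filter on low counts, 2 with doublets kept, 2 at 5% mitochondrial counts, 2 without adipocyte marker UMIs and 3 at clustering resolution 2, and leaving out 1 library gave 0 to 3 (0 without mesentery on high fat diet of run B). For arterial-like tissue on chow it was 2 with DESeq2, 1 with limma-voom, 3 with no filter, 3 with doublets kept, 2 at 5% mitochondrial counts, 1 without adipocyte marker UMIs and 3 at resolution 2, and 0 to 3 without 1 library (0 without adipose on chow of run B). For venous-like tissue on chow it was 1 in each of DESeq2, no filter, doublets kept, 5% mitochondrial counts and resolution 2, and 0 to 2 without 1 library. It was 1 for venous-like diet in mesentery with no filter and 1 without adipocyte marker UMIs (0 to 2 without 1 library), 1 for all endothelial cells, diet in mesentery, and 1 for arterial-like diet in adipose, both without adipocyte marker UMIs. For tissue on chow in all endothelial cells it was 1 with DESeq2, 1 with no filter and 1 at 5% mitochondrial counts (0 to 1 without 1 library), and for the interaction in arterial-like cells 1 with no filter (0 to 1), and in venous-like cells 0 to 1 without 1 library. On its own, the block changed no other call. The 17 class differences called became 14 to 20 under the alternatives. Rxra had a higher thinned share in capillary-like than in venous-like cells in 5 libraries at 1000 UMIs and in 2 at 500.

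Some directions turned, and the cause was not tested. Leaving out 1 library without the block gave Pparg log2 differences of -1.19 to 3.57 for diet in mesentery over all endothelial cells (-0.047 without mesentery on chow of run A), -0.72 to 2.30 for diet in adipose in arterial-like cells (-0.49 without adipose on chow of run A), -3.95 to 0.22 for tissue on chow in arterial-like cells (Meox2 -2.32 to 1.15) and -0.010 to 7.89 for diet in mesentery in venous-like cells. For capillary-like minus venous-like cells, Ppard was -0.019 with DESeq2, -0.025 with doublets kept and -0.14 to 0.10 without 1 library, and Meox2 -0.21 to 0.10. Rxra was -0.035 to 0.15 for arterial-like minus venous-like cells. For venous-like minus lymphatic-like cells, Pparg was 0.0050 with doublets kept, 0.031 at resolution 2 and -0.39 to 0.26 without 1 library, and Ppard -0.42 at resolution 2 and -0.016 to 0.28. Run A limits precision: Pparg had 1 to 23 counts per library in its capillary-like cells.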
